A study of Mus musculus with 6 samples.

Results

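The Cyp2c genes encode cytochrome P450 enzymes of the endoplasmic reticulum, and 10 of them were followed here in the livers of 6 mice. They were chosen by gene symbol from a table of 21983 rows. Of the 10 symbols 9 matched a row directly, and Cyp2c44 was read from the row Cyp2c23, under which RefSeq lists Cyp2c44 as a synonym. All 10 passed the filter on low counts, among 13153 genes tested.

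The first group held 3 C57BL/6 mice labelled Lrat-Cre; Prmt1f/f (mice 49, 82 and 88, called knockout mice here), in which Cre recombinase is driven from Lrat, a gene of hepatic stellate cells, and both Prmt1 alleles are floxed. The other group held 3 C57BL/6 mice labelled Prmt1f/f (mice 42, 83 and 90, called control mice here), which carried the floxed alleles without Cre. All 6 mice had drunk thioacetamide (TAA), a hepatotoxin that scars the liver, at 400 mg/L for 16 weeks, so no group shows the liver without TAA. The labels give an age of 10 weeks, without saying at which point, and no sex. Whole liver RNA was sequenced, and Cyp2c genes are expressed in hepatocytes, the cells in which this Cre is not meant to act.

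Cyp2c enzymes use electrons from the reductase Por to oxidise drugs, steroids and fatty acids, and several turn arachidonic acid into epoxides or hydroxy acids that act as local signals. In hepatocytes their genes are controlled by the xenobiotic receptors CAR (Nr1i3) and PXR (Nr1i2), by HNF4A and C/EBP factors, and by growth hormone, which makes several of them differ between the sexes. The level of many P450 transcripts falls when the liver is inflamed or loses hepatocyte function.

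The genes share sequence, which bears on how reads could be assigned among them. The Cyp2c rows other than Cyp2c23 lie side by side on chromosome 19 of the mouse (GENCODE annotation of GRCm38) and Cyp2c23 lies 4998 kb from the start of the first of them. From one end to the other the members in the cluster are Cyp2c55, Cyp2c29, Cyp2c38, Cyp2c39, Cyp2c40, Cyp2c37, Cyp2c54, Cyp2c50 and Cyp2c70. Cyp2c37 (chr19:39992424-40012243, plus strand), Cyp2c54 (chr19:40037940-40073827, minus strand), Cyp2c50 (chr19:40089688-40113950, plus strand) and Cyp2c70 (chr19:40153353-40187333, minus strand) are neighbours. The coding sequences of Cyp2c37 and Cyp2c50 were 96.1% identical, those of Cyp2c50 and Cyp2c54 95.2%, and those of Cyp2c37 and Cyp2c54 95.1%. Cyp2c70 stood apart, with 69.8% identity to its nearest relative, Cyp2c55. Of the words of 50 bases in GENCODE transcripts of Cyp2c37, 30.1% also occurred in another gene, against 18.3% for Cyp2c50, 25.7% for Cyp2c54, 60.3% for Cyp2c40, 0% for Cyp2c70 and 0% for Cyp2c23. With words of 100 bases these shares were 4.70% for Cyp2c37, 5.35% for Cyp2c50, 7.59% for Cyp2c54 and 34.4% for Cyp2c40. The counts of Cyp2c37, Cyp2c50, Cyp2c54 and Cyp2c40 are therefore uncertain as to which copy they came from, and exons of Cyp2c29 overlap those of the pseudogene Cyp2c53-ps.

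The promoters of 4 members with the results below are shown because CAAAGTC, a stretch found in HNF4A binding motifs, recurs in this family. Each is the RefSeq window of GRCm38.p6 from 250 bases before to 50 bases after the RefSeq start site, 5′ to 3′, with CAAAGTC in capitals. They are those of Cyp2c37 (chr19:39992174-39992473, plus strand), Cyp2c50 (chr19:40089429-40089728, plus strand), Cyp2c70 (chr19:40187237-40187536, minus strand) and Cyp2c29 (chr19:39286835-39287134, plus strand).
Cyp2c37: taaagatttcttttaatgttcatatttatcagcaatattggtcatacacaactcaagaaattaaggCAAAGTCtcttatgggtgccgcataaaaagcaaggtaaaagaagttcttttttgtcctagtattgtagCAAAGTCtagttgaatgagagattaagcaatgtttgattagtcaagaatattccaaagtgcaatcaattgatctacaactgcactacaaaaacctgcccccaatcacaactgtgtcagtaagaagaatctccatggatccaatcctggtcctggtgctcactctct
Cyp2c50: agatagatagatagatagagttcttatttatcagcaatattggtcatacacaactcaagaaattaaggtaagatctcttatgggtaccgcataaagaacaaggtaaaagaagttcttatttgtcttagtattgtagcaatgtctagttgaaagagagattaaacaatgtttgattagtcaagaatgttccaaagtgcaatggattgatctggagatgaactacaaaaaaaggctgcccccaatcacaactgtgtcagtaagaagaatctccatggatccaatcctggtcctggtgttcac
Cyp2c70: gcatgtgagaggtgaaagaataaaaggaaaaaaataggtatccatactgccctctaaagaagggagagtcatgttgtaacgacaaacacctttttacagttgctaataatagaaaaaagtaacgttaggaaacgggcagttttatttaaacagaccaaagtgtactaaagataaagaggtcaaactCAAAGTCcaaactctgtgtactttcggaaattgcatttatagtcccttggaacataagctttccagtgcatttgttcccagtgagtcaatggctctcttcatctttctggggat
Cyp2c29: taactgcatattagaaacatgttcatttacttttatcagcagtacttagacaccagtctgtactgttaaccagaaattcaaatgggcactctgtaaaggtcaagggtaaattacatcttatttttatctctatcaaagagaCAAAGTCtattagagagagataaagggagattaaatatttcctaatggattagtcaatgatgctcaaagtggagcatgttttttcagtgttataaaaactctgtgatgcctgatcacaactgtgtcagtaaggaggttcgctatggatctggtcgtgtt
Cyp2c37 holds the motif at positions -184 and -116 from the start site, Cyp2c70 at -64 and Cyp2c29 at -109. The window of Cyp2c50 is 86.6% identical to that of Cyp2c37 and does not hold these 7 letters. The motif was chosen after the windows were read and was searched on both strands. It was found in 5 of the 8 members with a window and in 4.44% of all 32851 RefSeq windows of this length. These 5 included Cyp2c39 and Cyp2c40, whose log2 fold changes were negative (-0.14 and -0.58). Short motifs of nuclear receptors were searched as well: AGGTCA was found in 2 of the 8 members and in 16.3% of all windows, AGTTCA in 3 of the 8 and in 14.0%. A match is a stretch of letters and was not tested as a binding site.

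Libraries held between 13303884 and 16462278 counts, with 15168 to 15875 genes detected. Levels are given as CPM, the usual scaling of counts to the library total, here after TMM normalization. Of the 10 hepatocyte markers looked for, 9 were measured and all 9 were tested. Albumin (Alb) had 62655, 73605 and 69666 CPM in knockout mice 49, 82 and 88, against 55389, 55636 and 81552 CPM in control mice 42, 83 and 90. Prmt1, the targeted gene, had 35.8, 24.7 and 25.8 CPM in the knockout mice, against 38.9, 44.4 and 49.8 CPM in the control mice. Every knockout mouse lay below every control mouse (log2 fold change -0.62, SE 0.20; adjusted p 0.347 in edgeR). Libraries of knockout mouse 49 and control mouse 42 were closer to each other (chi-square per degree of freedom 28.4) than mouse 49 was to the other knockout mice (61.8 and 65.6). Mice 49 and 42 are also those numbered under 80. Control mouse 90 was far from every other library, the other controls included (91.3 to 105.2).

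Summed over the 10 members, the livers of knockout mice held about 2.21 times the Cyp2c counts of control livers, and 1 of the 3 knockout mice lay within the range of the controls. A sum does not depend on how reads were divided among the members, though it can miss reads that were left out for mapping to several genes. It was 1680.3, 3558 and 2817 CPM in knockout mice 49, 82 and 88, against 996, 901 and 1755 CPM in control mice 42, 83 and 90. The means were 2685 ± 946 CPM in knockout livers and 1217 ± 468 CPM in control livers (SD, n = 3 each). As a share of all counts, without TMM scaling, the members took 0.169%, 0.323% and 0.266% in the knockout mice, against 0.105%, 0.108% and 0.161% in the control mice, so by this measure the groups did not overlap. The sum of Cyp2c37, Cyp2c54, Cyp2c50 and Cyp2c70, neighbours set apart after their values were seen, was 1948 ± 1004 CPM in knockout and 676 ± 314 CPM in control livers, a ratio of 2.88, with knockout mouse 49 (857 CPM) below control mouse 90 (1039 CPM). That of the other 6 members was 737 ± 81.9 CPM in knockout and 541 ± 158 CPM in control livers, a ratio of 1.36, and overlapped too.

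**Figure D1:**
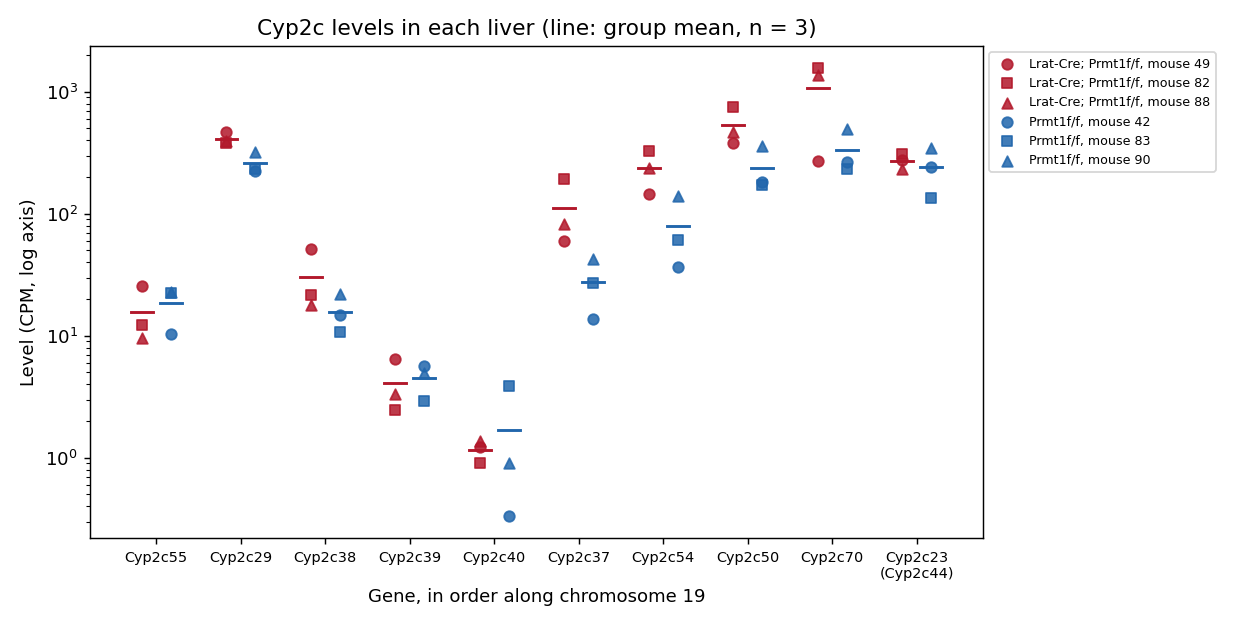
CPM (log axis) of the 10 genes in each liver, in order along chromosome 19, with knockout mice in red left of control mice in blue and a line at each group mean (n = 3). Cyp2c37, Cyp2c54, Cyp2c50 and Cyp2c29 do not overlap between the groups, and in Cyp2c70 knockout mouse 49 (273 CPM) lies among the control mice.

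By the quasi-likelihood F test (edgeR, adjusted p under 0.05) no member passed, nor did any of the 13153 genes (0%). At an unadjusted p under 0.05, 5 of the 10 (Cyp2c29, Cyp2c37, Cyp2c50, Cyp2c54 and Cyp2c70) were higher in knockout livers, against 5.06% of all genes tested, and 0 were lower, against 5.95%. DESeq2 called 2 members, Cyp2c37 and Cyp2c54, both higher in knockout livers, against 0.874% of all genes called higher and 1.81% called in either direction. In 4 members every knockout mouse lay above every control mouse, against 8.94% of all genes, and in 0 the reverse, against 7.95%. Of the 10 log2 fold changes 7 were positive, against 47.3% of all genes, and the median of the 10 was 0.81, against -0.02 over all genes tested. Without knockout mouse 49 the members' median was 0.45. Exact permutation of the mice, two-sided on log2 CPM, gave p = 0.1 for each of the 4 separated genes, which is the smallest p that 20 assignments of 3 against 3 allow. In bulk liver a larger share of hepatocytes and more of a transcript per hepatocyte cannot be told apart.

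Cyp2c37, an arachidonic acid hydroxylase expressed around the central vein, had the largest fold change of the members. It had 60.3, 193.8 and 82.4 CPM in knockout mice 49, 82 and 88, against 13.7, 27.1 and 42.6 CPM in control mice 42, 83 and 90. Every knockout mouse lay above every control mouse, and mouse 82 was the highest of the 6. The means were 112 ± 71.5 CPM in knockout and 27.8 ± 14.5 CPM in control livers (SD, n = 3 each). This made a log2 fold change of 2.01 (SE 0.51, 95% interval 0.86 to 3.16), for which edgeR gave an adjusted p of 0.291 and DESeq2 one of 0.00564. Without mouse 82 the log2 fold change was 1.35.

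Cyp2c54 and Cyp2c50, near relatives of Cyp2c37 that form epoxides of arachidonic and linoleic acid, were higher in knockout livers as well. Cyp2c54 had 146, 326 and 237 CPM in knockout mice 49, 82 and 88, against 36.9, 60.4 and 139.7 CPM in control mice 42, 83 and 90. The groups did not overlap, but knockout mouse 49 and control mouse 90 lay close together. On the log2 scale the groups differed by 1.58 (SE 0.48, 95% interval 0.49 to 2.68; adjusted p 0.328 in edgeR and 0.0407 in DESeq2), and by 2.23 without control mouse 90. Cyp2c50 had 377, 756 and 465 CPM in the knockout mice, against 182, 171 and 358 CPM in the control mice. Here too mouse 49 lay just above mouse 90, and the log2 difference came to 1.17 (SE 0.37, 95% interval 0.33 to 2.01; adjusted p 0.344 in edgeR and 0.0645 in DESeq2). Because these 3 transcripts share sequence, their sum was taken: it was 584, 1276 and 785 CPM in the knockout mice, against 232, 259 and 539.9 CPM in the control mice. The sum did not overlap between the groups either and gave a ratio of 2.56.

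Cyp2c70, which in mice turns chenodeoxycholic acid into muricholic acids and so sets much of the murine bile acid pool, had the highest group means per kb of annotated exons. It had 273, 1557 and 1371 CPM in knockout mice 49, 82 and 88, against 266, 233 and 499 CPM in control mice 42, 83 and 90. Mice 82 and 88 lay far above every control mouse, while mouse 49 lay between control mice 42 and 90. The means were 1067 ± 694 CPM in knockout and 332 ± 145 CPM in control livers (SD, n = 3 each). The interval around the log2 fold change of 1.68 was wide (SE 0.59, 95% interval 0.35 to 3.02; adjusted p 0.369 in edgeR and 0.0678 in DESeq2). Without mouse 49 the value was 2.14 (edgeR, adjusted p 0.0870). The permutation p over all 6 mice was 0.2 (exact, two-sided).

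Cyp2c29, an epoxygenase induced through CAR and PXR, had a smaller difference with little spread. It had 466, 377 and 394 CPM in knockout mice 49, 82 and 88, against 224, 235 and 321 CPM in control mice 42, 83 and 90. The groups did not overlap, and in contrast to the genes above mouse 49 was the highest of the 6. The means were 412 ± 46.9 CPM in knockout and 259.8 ± 53.0 CPM in control livers (SD, n = 3 each). The log2 difference was 0.67 (SE 0.22, 95% interval 0.16 to 1.17; adjusted p 0.353 in edgeR and 0.0922 in DESeq2).

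Cyp2c38, an arachidonic acid epoxygenase, and Cyp2c39, a hydroxylase of retinoic acid, are next to each other and 94.2% identical in coding sequence. Cyp2c38 had 51.3, 21.7 and 17.7 CPM in knockout mice 49, 82 and 88, against 14.7, 10.7 and 21.9 CPM in control mice 42, 83 and 90. The log2 difference of 0.95 (SE 0.42; adjusted p 0.454 in edgeR) rested on mouse 49, without which it was 0.33. Cyp2c39 had 6.44, 2.47 and 3.31 CPM in the knockout mice, against 5.67, 2.90 and 4.99 CPM in the control mice. The groups overlapped fully, at a log2 fold change of -0.14 (SE 0.43; adjusted p 0.918 in edgeR), and its sign turned to 0.11 without mouse 82 and to 0.07 without mouse 42.

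Cyp2c23 (Cyp2c44), an epoxygenase outside the cluster, had overlapping levels in the groups. It had 274, 311 and 235 CPM in knockout mice 49, 82 and 88, against 243, 134 and 345 CPM in control mice 42, 83 and 90. All 3 knockout values lay within the control range, with a log2 fold change of 0.18 (SE 0.32, 95% interval -0.55 to 0.92; adjusted p 0.845 in edgeR), and -0.11 without mouse 83. Cyp2c55, known best from the colon, had 25.4, 12.4 and 9.51 CPM in the knockout mice, against 10.3, 22.3 and 22.7 CPM in the control mice. The log2 difference was -0.22 (SE 0.41; adjusted p 0.851 in edgeR), -0.75 without mouse 49 and 0.01 without mouse 88. Cyp2c40, a hydroxylase of arachidonic acid, was near the limit of detection, with 19, 12 and 19 counts in the knockout mice, against 5, 76 and 11 counts in the control mice. Its log2 difference of -0.58 (SE 0.76; adjusted p 0.786 in edgeR) turned to 0.94 without control mouse 83.

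**Figure D2:**
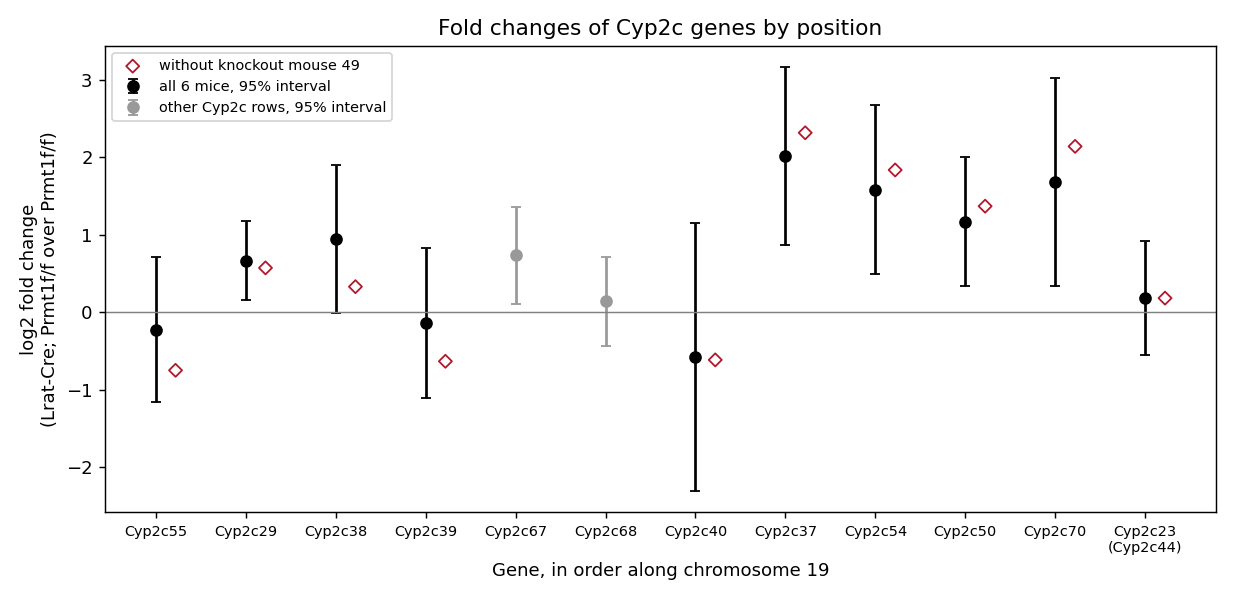
log2 fold change of knockout over control livers for the 10 members (black) and the other 2 Cyp2c rows that passed the filter (grey), with 95% intervals, in order along chromosome 19, and the members' values without knockout mouse 49 (open diamonds). The 4 neighbours Cyp2c37, Cyp2c54, Cyp2c50 and Cyp2c70 lie between 1.17 and 2.01, and the other members between -0.58 and 0.95.

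Along the cluster, the 4 members with a log2 fold change over 1 (1.36% of all genes tested) were the 4 that lie next to each other at one end. Their values without knockout mouse 49 were 2.32 for Cyp2c37, 1.84 for Cyp2c54, 1.37 for Cyp2c50 and 2.14 for Cyp2c70. Without knockout mouse 82 they were 1.35 for Cyp2c37, 1.27 for Cyp2c54, 0.82 for Cyp2c50 and 1.30 for Cyp2c70, and Cyp2c38, which lies elsewhere in the cluster, was at 1.13. Cyp2c50 was also under 1 without control mouse 83 (0.98), and Cyp2c38 also over 1 without knockout mouse 88 (1.20) or control mouse 90 (1.22), so which members passed this line depended on single mice. The tested Cyp2c rows outside the members had log2 fold changes under 1. Cyp2c67 had 78.4, 97.1 and 55.3 CPM in the knockout mice, against 54.9, 31.6 and 52.4 CPM in the control mice (log2 fold change 0.73, SE 0.27; adjusted p 0.389 in edgeR). Its groups did not overlap, by a narrow gap between knockout mouse 88 and control mouse 42. Cyp2c68 had 152, 128 and 122 CPM in the knockout mice, against 105, 91.0 and 169 CPM in the control mice, groups that overlapped (0.14, SE 0.25). These 2 are 97.1% identical in coding sequence. Cyp2c65, Cyp2c66 and Cyp2c69 had at most 9 counts in a mouse and were not tested.

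Per kb of annotated exons the members spanned a wide range. Cyp2c70 came first and Cyp2c40 last by group mean in both genotypes, though not in every mouse. All annotated exons of a gene counted towards its length, which was 3.06 kb for Cyp2c29, 2.92 kb for Cyp2c50, 2.16 kb for Cyp2c23 and 1.79 kb for Cyp2c54. The order among these genes can depend on that choice of length. In knockout livers Cyp2c70 came first at 539 ± 350 CPM per kb, then Cyp2c50 at 183 ± 68.0, Cyp2c29 at 135 ± 15.3, Cyp2c54 at 132 ± 50.3, Cyp2c23 at 127 ± 17.6 and Cyp2c37 at 61.5 ± 39.2 CPM per kb. In control livers Cyp2c70 came first as well, at 168 ± 73.1 CPM per kb, then Cyp2c23 at 112 ± 48.8, Cyp2c29 at 84.9 ± 17.3, Cyp2c50 at 81.2 ± 35.9, Cyp2c54 at 44.2 ± 30.2 and Cyp2c37 at 15.3 ± 7.92 CPM per kb (SD, n = 3 throughout). Cyp2c38, Cyp2c55, Cyp2c39 and Cyp2c40 followed, at 10.5 ± 6.39, 7.89 ± 4.24, 2.24 ± 1.15 and 0.571 ± 0.118 CPM per kb in knockout livers, and at 5.50 ± 1.98, 9.23 ± 3.51, 2.49 ± 0.795 and 0.834 ± 0.930 CPM per kb in control livers. In knockout livers the ranges of mean ± SD of neighbours in this order overlapped from Cyp2c70 down to Cyp2c23 and between Cyp2c38 and Cyp2c55. In control livers, where Cyp2c55 came before Cyp2c38, they overlapped for every pair of neighbours but Cyp2c38 and Cyp2c39.

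The make-up of the Cyp2c counts also varied, most in the share of Cyp2c70 among the knockout mice. Cyp2c70 took 16.2%, 43.7% and 48.7% of the members' counts in knockout mice 49, 82 and 88, against 26.7%, 25.9% and 28.4% in control mice 42, 83 and 90. Knockout mouse 49 had the lowest share of the 6 mice and the other knockout mice the highest. Cyp2c29 showed the reverse among the knockout mice, with 27.7%, 10.6% and 14.0%, against 22.5%, 26.1% and 18.3% in the control mice. Cyp2c54 took 8.70%, 9.16% and 8.41% in the knockout mice, against 3.71%, 6.71% and 7.96% in the control mice, and did not overlap between the groups. Cyp2c23 took 16.3%, 8.73% and 8.34% in the knockout mice, against 24.4%, 14.9% and 19.7% in the control mice.

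**Figure D3:**
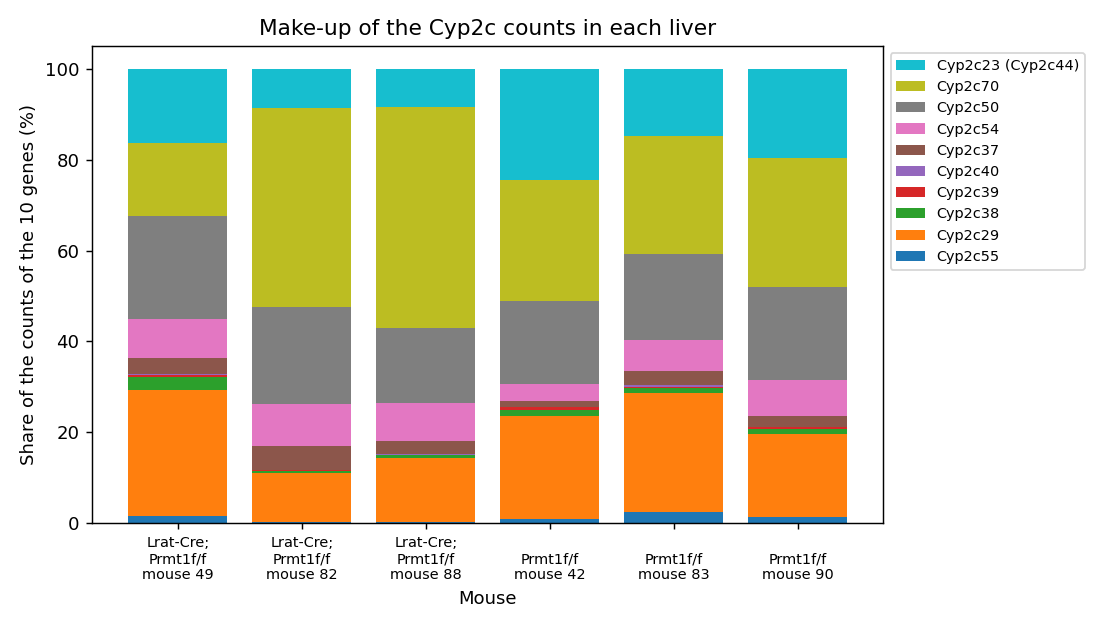
Share (%) of the summed counts of the 10 members taken by each gene in each liver, knockout mice left of control mice. Cyp2c70 takes 43.7% and 48.7% in knockout mice 82 and 88, 16.2% in knockout mouse 49, and 25.9% to 28.4% in the control mice.

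Members also differed in how their levels varied from mouse to mouse. Likeness was measured over the 6 mice as the root mean square difference of log2 CPM centred on each gene's mean, a description without a test. The closest pair was Cyp2c37 and Cyp2c54 (0.30), which share sequence. Next came Cyp2c29 and Cyp2c23 (0.40), which are 65.4% identical in coding sequence and lie apart on the chromosome. Cyp2c29 and Cyp2c23 varied little, and differed from a flat profile by 0.39 and 0.44, against 1.20 for Cyp2c37 and 1.08 for Cyp2c54. Cyp2c29 was thus no closer to Cyp2c23 than to a profile without change. Cyp2c50 was closest to Cyp2c54 (0.41), and so was Cyp2c70 (0.62), although it shared no word of 50 bases with it. Cyp2c38 and Cyp2c39, neighbours of high identity, differed by 0.60. The most distant pair was Cyp2c40 and Cyp2c70 (1.53). The mean centred profile of the 10 members was 0.32, 0.55 and 0.28 in knockout mice 49, 82 and 88, against -0.80, -0.46 and 0.11 in control mice 42, 83 and 90. The tested genes outside the family closest to this profile were Lyrm7 (0.11), Sugct (0.12), Car8 (0.17), Gsta2 (0.17) and Gnptg (0.18), over 6 mice.

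Among 18 transcription factors and receptors known to act on hepatic Cyp2c genes, 14 had a positive fold change in knockout livers, against 47.3% of all genes. None of the 18 passed in edgeR, and DESeq2 called 1, Nr1i3, higher, against 0.874% of all genes. In 7 of them every knockout mouse lay above every control mouse, against 8.94% of all genes, and in 0 the reverse, against 7.95%. Their median log2 fold change was 0.42, against -0.02 over all genes. Nr1i3 (CAR) had 9.79, 14.9 and 14.8 CPM in knockout mice 49, 82 and 88, against 5.73, 5.90 and 3.84 CPM in control mice 42, 83 and 90 (log2 fold change 1.34, SE 0.28; adjusted p 0.227 in edgeR and 0.00429 in DESeq2). Nr1i2 (PXR) had 113, 109.9 and 106 CPM in the knockout mice, against 99.9, 77.4 and 95.1 CPM in the control mice, a narrow gap with a log2 fold change of 0.27 (SE 0.17). Hnf4a, a master regulator of hepatocyte genes, had 952, 952 and 1049.9 CPM in the knockout mice, against 789.8, 521 and 565 CPM in the control mice (0.65, SE 0.24; adjusted p 0.384 in edgeR). Its groups did not overlap. Rxra, the partner of CAR and PXR, was at 0.69 (SE 0.28) and Cebpa at 0.56 (SE 0.22), both with separate groups. The 4 with a negative fold change all overlapped: Cebpb (-0.18, SE 0.33), Bcl6 (-0.25, SE 0.45), Cux2 (-0.14, SE 0.54) and Ahr (-0.21, SE 0.20). Stat5b, at 0.48 (SE 0.22), overlapped as well. Cyp2b10, the classical CAR target, had 3.61, 13.7 and 8.94 CPM in the knockout mice, against 8.60, 4.78 and 7.12 CPM in the control mice, and overlapped (0.36, SE 0.45).

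Of 10 genes that serve P450 enzymes or use their products, 7 had a positive fold change, against 47.3% of all genes, with a median of 0.10. In edgeR 0 passed, and DESeq2 called 1 higher, against 0.874% of all genes. That was Por, the reductase that passes electrons to every Cyp2c enzyme, with 614, 968 and 1202 CPM in knockout mice 49, 82 and 88, against 525, 436 and 435 CPM in control mice 42, 83 and 90. Mouse 49 was the lowest of the knockout mice but above all control mice (log2 fold change 0.996, SE 0.28; adjusted p 0.323 in edgeR and 0.0252 in DESeq2). Fech, which inserts iron to make heme, was at 0.53 (SE 0.20) with separate groups. Alas1, the first enzyme of heme synthesis, was at 0.45 (SE 0.27) with overlapping ones. Ephx2, the soluble hydrolase that breaks down Cyp2c epoxides, had 336, 379 and 319 CPM in the knockout mice, against 364, 255 and 384 CPM in the control mice, and Ephx1, its microsomal counterpart, was likewise overlapping (0.05, SE 0.23, and 0.09, SE 0.24).

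**Figure D4:**
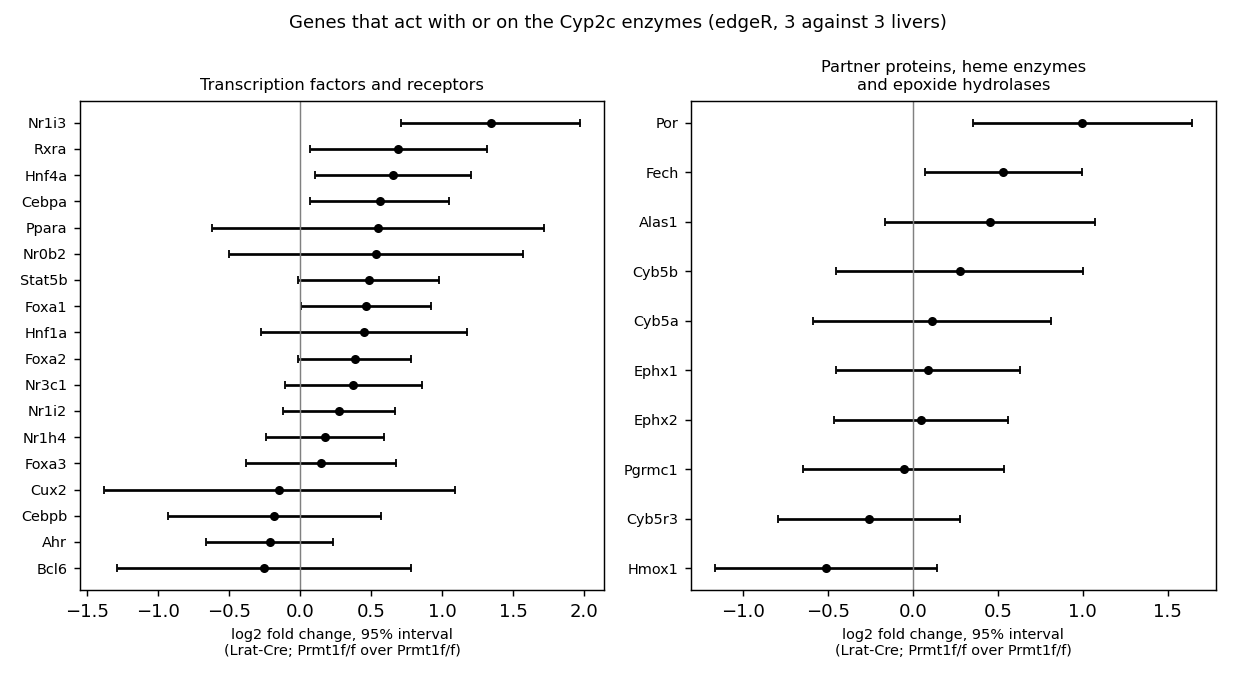
log2 fold change of knockout over control livers with 95% interval (edgeR) for 18 transcription factors and receptors (left) and 10 partner, heme and hydrolase genes (right). Nr1i3 (1.34) and Por (0.996) lie highest in their panels.

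Markers of zones and cell types were set beside these values; over all genes 47.3% were positive, 8.94% were separate and higher in knockout livers and 7.95% separate and lower. Periportal genes had a median log2 fold change of 0.60 (12 tested, 10 positive, 5 separate and higher in knockout livers, 1 separate and lower), and pericentral genes one of 0.16 (15 tested, 9 positive, 1 separate in each direction, near or below the shares over all genes). Hepatocyte markers summed to between 95089 and 113000 CPM in knockout livers, against 78845 to 118597 CPM in control livers. Alb alone had 55389 to 81552 CPM in a mouse, so it made up most of each sum. Of the 9 tested, 6 were positive, 3 separate and higher and 0 separate and lower, with a median of 0.24. Stellate cell markers summed to between 295 and 573 CPM in knockout livers, against 769.8 to 1097 CPM in control livers (9 tested, 8 negative, 6 separate and lower, median -1.04). Hhip, the marker that was not tested, was near the limit of detection and overlapped. It had 5, 0 and 0 counts in knockout mice 49, 82 and 88, against 11, 3 and 3 counts in control mice 42, 83 and 90. Bile duct markers summed to between 285 and 742 CPM in knockout livers, against 529.9 to 1315 CPM in control livers (7 tested, all 7 negative, median -0.76). Neutrophil markers summed to between 11.7 and 17.3 CPM in knockout livers, against 17.6 to 81.5 CPM in control livers (4 tested, all 4 negative, 2 separate and lower, median -1.90). Markers of T, B and NK lymphocytes summed to between 8.69 and 10.5 CPM in knockout livers, against 7.73 to 29.2 CPM in control livers (8 tested, all 8 negative, 3 separate and lower, median -1.32), so their sums overlapped. Markers of Kupffer cells and macrophages overlapped in their sums, with 439 to 591 CPM in knockout livers, against 342 to 938 CPM in control livers (8 tested, median 0.14), and so did those of sinusoidal endothelium, with 308 to 499 CPM in knockout livers, against 319 to 437 CPM in control livers (8 tested, median 0.07). Acute phase genes, which hepatocytes raise in inflammation, had a median of 0.35 (18 tested, 16 positive, 3 separate and higher, 0 separate and lower). In edgeR 0 genes of these lists passed, and 0 of the 13153 genes tested did. DESeq2 called 5 of the 12 periportal genes, 1 of the 15 pericentral genes and 1 of the 9 hepatocyte markers higher. It called 5 of the 9 stellate cell markers, 2 of the 4 neutrophil markers and 1 of the 8 lymphocyte markers lower. In the other lists here it called 0. Over all genes it called 0.874% higher and 1.81% in either direction. The part of these markers in the Cyp2c values was not tested. All 4 Y-linked genes looked for were present in all 6 mice; Ddx3y had 81.2 to 85.8 CPM in knockout livers, against 59.7 to 75.8 CPM in control livers.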

How the data were processed

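RNA of 6 whole livers was sequenced after TRIzol extraction and an NEBNext Ultra library preparation, per the labels' protocols. The authors deposited raw counts per gene symbol in 1 table of whole numbers, with 0 columns of other samples. Tools were Trimmomatic, FastQC, STAR and HTSeq, with mm10 as build, per the submitters' processing notes. Which annotation and strand setting were used, and what became of reads mapping to several genes, was not given in the sources used here. Groups came from the sample titles and columns from the mouse numbers, which are not shared between genotypes.

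Counts were filtered with filterByExpr, scaled by TMM (factors 0.909 to 1.20) and compared by genotype in edgeR 4.0.16 under R 4.3.3 (quasi-likelihood F test), with Benjamini-Hochberg adjustment over 13153 genes; DESeq2 1.42.0 was run beside it, and limma 3.58.1 (voom) as an alternative. Each standard error is the log2 fold change divided by the root of its F, and 95% intervals from 8.75 degrees of freedom. The test was checked on simulated counts. The exact permutation test used log2(CPM + 0.1), and likeness used log2 CPM with a prior count of 2. All pairs of libraries differed beyond counting noise (chi-square per degree of freedom 16.3 or more). The labels describe separate mice, so p-values measure the spread between mice.

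The members and lists were chosen with earlier results of these data known. Named were all members and genes of the regulator and partner lists. So were the 2 genes with the smallest p of other lists and the 5 genes most like the members. Also named were Hhip, Cyp2c65, Cyp2c66 and Cyp2c69 as untested, and Cyp2f2, Cyp3a25 and Cyp3a59 as called by DESeq2. Cyp2b10, Cyp2a4, Cyp2b9, Cyp3a16, Alb, Ddx3y and the sums over neighbours were chosen after their values were seen. Not every gene the rule takes is reported. Cyp2c23 was moved from the list of other Cyp2c symbols to the members. Lengths are exonic lengths in GENCODE M21 on GRCm38, the assembly of mm10. Promoter windows were matched by symbol for 8 of 10 members, all but Cyp2c54 and Cyp2c23. Coding sequences were aligned end to end with Biopython 1.88.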

Additional observations from a re-analysis of the deposited data

How the results depend on the processing

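No paired analysis was possible because the mouse numbers are not shared between the genotypes. Members past an adjusted p of 0.05 numbered 0 with edgeR under every scaling, filter and left-out mouse and with limma-voom, 2 with DESeq2 and 5 with limma-voom and library weights (Cyp2c29, Cyp2c37, Cyp2c50, Cyp2c54 and Cyp2c70, all higher). Over all genes the count was 0, and 4 without a low-count filter, 238 with DESeq2, 560 with library weights, 6 with a term for mouse number, 3 at an adjusted p of 0.10 and 0 to 13 with 1 mouse left out, the 13 without knockout mouse 49. The members' median of 0.81 was 0.38 in the 4 mice numbered over 80 alone, and 0.45 (without knockout mouse 49) to 1.01 with 1 mouse left out. The log2 ratio of summed CPM was 1.14, and 0.88 to 1.46 with 1 mouse left out; with the 9 rows matched by symbol it was 1.30 and with Cyp2c67 and Cyp2c68 added 1.06, both choices made after seeing the data. With 1 mouse left out, Cyp2c39 ranged from -0.63 to 0.11, Cyp2c40 from -1.05 to 0.94, Cyp2c55 from -0.75 to 0.011 and Cyp2c23 from -0.11 to 0.50; the cause was not tested. Cyp2c29, Cyp2c37, Cyp2c38, Cyp2c50, Cyp2c54 and Cyp2c70 stayed positive under all 17 alternatives. With total counts as the only scaling the median of all genes was -0.17, against -0.02 with TMM, and 4 members had separate groups under both.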

Other observations

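Outside the Cyp2c family, 25 of 32 other P450 genes of families 1 to 3 had a positive fold change in knockout livers. The share over all genes was 47.3%, and the median log2 fold change of the 32 was 0.40. None passed in edgeR. DESeq2 called 5, all higher (Cyp2f2, Cyp3a25, Cyp3a41a, Cyp3a44 and Cyp3a59), against 0.874% of all genes called higher. In 7 of the 32 the groups did not overlap and were higher in knockout livers, against 8.94% of all genes tested. In 0 they were lower, against 7.95%.

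Cyp3a41a, a P450 gene of female liver, had 11.3, 16.8 and 7.93 CPM in knockout mice 49, 82 and 88, against 2.67, 2.24 and 0.491 CPM in control mice 42, 83 and 90. Cyp3a44, of the same kind, had 16.0, 15.8 and 5.76 CPM in the knockout mice, against 2.27, 3.71 and 2.04 CPM in the control mice. Both had separate groups (log2 fold change 2.70, SE 0.53, and 2.21, SE 0.44; adjusted p 0.227 in edgeR for each) and are uncertain because near-identical copies can share reads. Cyp2a4 had 2111, 906 and 669 CPM in the knockout mice, against 529, 1793 and 792 CPM in the control mice, and Cyp2b9 21.9, 17.5 and 3.39 CPM, against 1.07, 17.6 and 0.90 CPM. Both overlapped between the groups. Cyp3a16, another female-biased Cyp3a gene, went the other way at low levels and overlapped. It had 0.837, 0.225 and 0.576 CPM in the knockout mice, against 0.600, 1.83 and 2.37 CPM in the control mice (log2 fold change -1.51, SE 0.65). Of 12 female-biased genes tested 7 had a positive fold change, and of 14 male-biased ones 5, against 47.3% of all genes. All 6 livers held Y-linked transcripts.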
